A study of Mus musculus with 4 samples.

Results

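Laminins, integrins and basement membrane genes were measured in mouse mammary epithelial cells with and without depletion of the glucocorticoid receptor (GR). The group was taken by gene name from the annotation of the array: laminin chains, genes whose names begin with Itga, or with Itgb and a digit, and Nid1, Nid2, Hspg2, Agrn and Dag1. It held 95 of the 41174 probes that were not controls, for 46 of 28146 gene names. The name rule also took 4 genes for proteins that bind an integrin tail and are not integrins themselves, of which Itgb1bp1 is an example. Of the 95 probes, 50 (34 genes) passed the filter on dim signal, which asked that both arrays of 1 or both cell lines be well above background, and were kept for testing. The other 45 were not kept, 34 of them being well above background on no array, and 12 genes were left with no kept probe.

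EPH-4, a non-malignant line of spontaneously immortalised mouse mammary gland cells, was stably transfected with an empty H1-2 vector to give the line EV-50, or with the same type of vector carrying a short hairpin RNA against GR to give the line shGR-19. Both lines carried a puromycin resistance plasmid, were held in 2 µg/ml puromycin in medium without serum, and received no hydrocortisone, so GR had no added ligand in either line. Each line was grown from 1 colony, so that differences between clones and the effect of the hairpin cannot be told apart. RNA of each line (300 ng per labelling) was labelled with Cy3 in duplicate and hybridised to Agilent whole-genome mouse arrays, 2 per line, and nothing stated that the duplicates came from separate cultures, so p-values measure only the spread between these samples, which may be technical.

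A basement membrane is a thin sheet of matrix beneath epithelia. Laminins, each an αβγ trimer, form its first network, nidogens and the proteoglycans perlecan and agrin tie that network to collagen IV, and integrins and dystroglycan hold the cell to it. In the mammary gland, contact with laminin through integrins is known to support epithelial polarity and milk protein expression.

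The values came in 2 forms that did not tell the same story about the replicates. The scanner arrays gave a log2 signal relative to the 75th percentile of each array. The deposited value table gave log2 values of the same samples centred on the median of each probe, so that a value of 0 is that median and a difference between lines is a log2 fold. Over the 41 member probes above background on all 4 arrays, the lines differed with an SD of 0.149 (log2) on the scanner arrays labelled replicate 1 and with an SD of 0.702 on those labelled replicate 2. Within a line, the scanner arrays labelled replicate 2 and replicate 1 differed with an SD of 0.75 in EV-50 and 1.04 in shGR-19, against 0.195 and 0.153 in the value table. On the scanner scale the replicates of a line thus lay farther apart than the 2 lines did on the arrays labelled replicate 1. The called members, Lamb1-1 and Lama3 are therefore given in both forms, and the other members from the value table. The scanner differences are those between arrays as labelled, and whether each scanner file belongs to the sample it is labelled with could not be settled from the files. Nr3c1, the gene for GR, stood 3.83-fold lower in shGR-19 by the value table (log2 difference -1.94 ± 0.048 SE, adjusted p = 0.00215, brightest of 4 probes), and in the scanner arrays it was lower by 0.35 on the log2 scale between the replicate 1 arrays, and fell by 1.95 between the replicate 2 arrays.

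The array probes were 60 bases long, and the first 30 bases are shown for the genes with the largest changes and for Lamb3, the laminin chain that fell, because the call of a gene rests on the stretch of transcript its probe reads. Letters run 5′ to 3′ along the transcript, and positions follow the array annotation, whose build is mm9. The Itga7 and Itgb6 probes read separate stretches. Those of Itga7 start at bases 3662 and 3167, each of a different listed transcript. Those of Itgb6 start at bases 2445, 4541 and 838 of the same listed transcript. The intervals of Lamb3 and of the first Itgb6 probe are longer than 60 bases and so span an intron.
Lamc1 (chr1:155066154-155066213, - strand): tgtggcccttttcaatgtgccttcacttta
Nid1 (chr13:13604417-13604476, + strand): tgcttattaatggttctccagatgtataca
Lamb3 (chr1:195167088-195169619, + strand): aatgaaagacatggagtcagaactgcttcg
Itga7, first probe (chr10:128394990-128395048, + strand): gttgctagcatacgttgagatatggcaggc
Itga7, second probe (chr10:128390852-128390911, + strand): cgagccaacatcacagtgaaatcctccatt
Itgb6, first probe (chr2:60438632-60443247, - strand): aaggaagttgctaaatttgaagcagaacgc
Itgb6, second probe (chr2:60436536-60436595, - strand): ttgtgttattgctgaaatgagatgttagga
Itgb6, last probe (chr2:60492788-60492847, - strand): tctgcttacctacatttggattcaagcaca

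At an adjusted p below 0.01 by limma in the value table, 11 member probes for 7 genes were higher in shGR-19 and 3 probes for 3 genes were lower. Of all 24436 kept probes on the array 5.53% were higher and 6.04% were lower. With a difference of over 2-fold as well, 7 member probes for 4 genes were higher, against 1.87% of all kept probes, and 0 were lower, against 2.39%, as the lowest member difference, that of Itgae, was -0.90. The median difference of the 50 member probes was 0.09, against 0.01 over all kept probes, and 29 members (58.0%, against 51.0% of all) lay above 0. The 2 value-table columns of each line did not overlap for any of the 14 called probes. A call at this threshold from 2 columns per line all but requires that, so it adds nothing to the calls. The share of all kept probes without overlap was not counted. In the scanner arrays 0 members were called by the same fit, against 0% of all probes higher and 0% lower. There 1 member, a dim Itga4 probe kept through its shGR-19 arrays alone, had an unadjusted p below 0.05 by limma, among 209 of all 24436 kept probes. The median member difference in the scanner arrays was 0.19, against 0.02 over all kept probes. The calls in the value table also fell to 0 in each direction when any 1 of the 4 columns (EV-50 replicate 1 or 2, shGR-19 replicate 1 or 2) was left out, or when dim probes were kept in the fit.

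**Figure D1:**
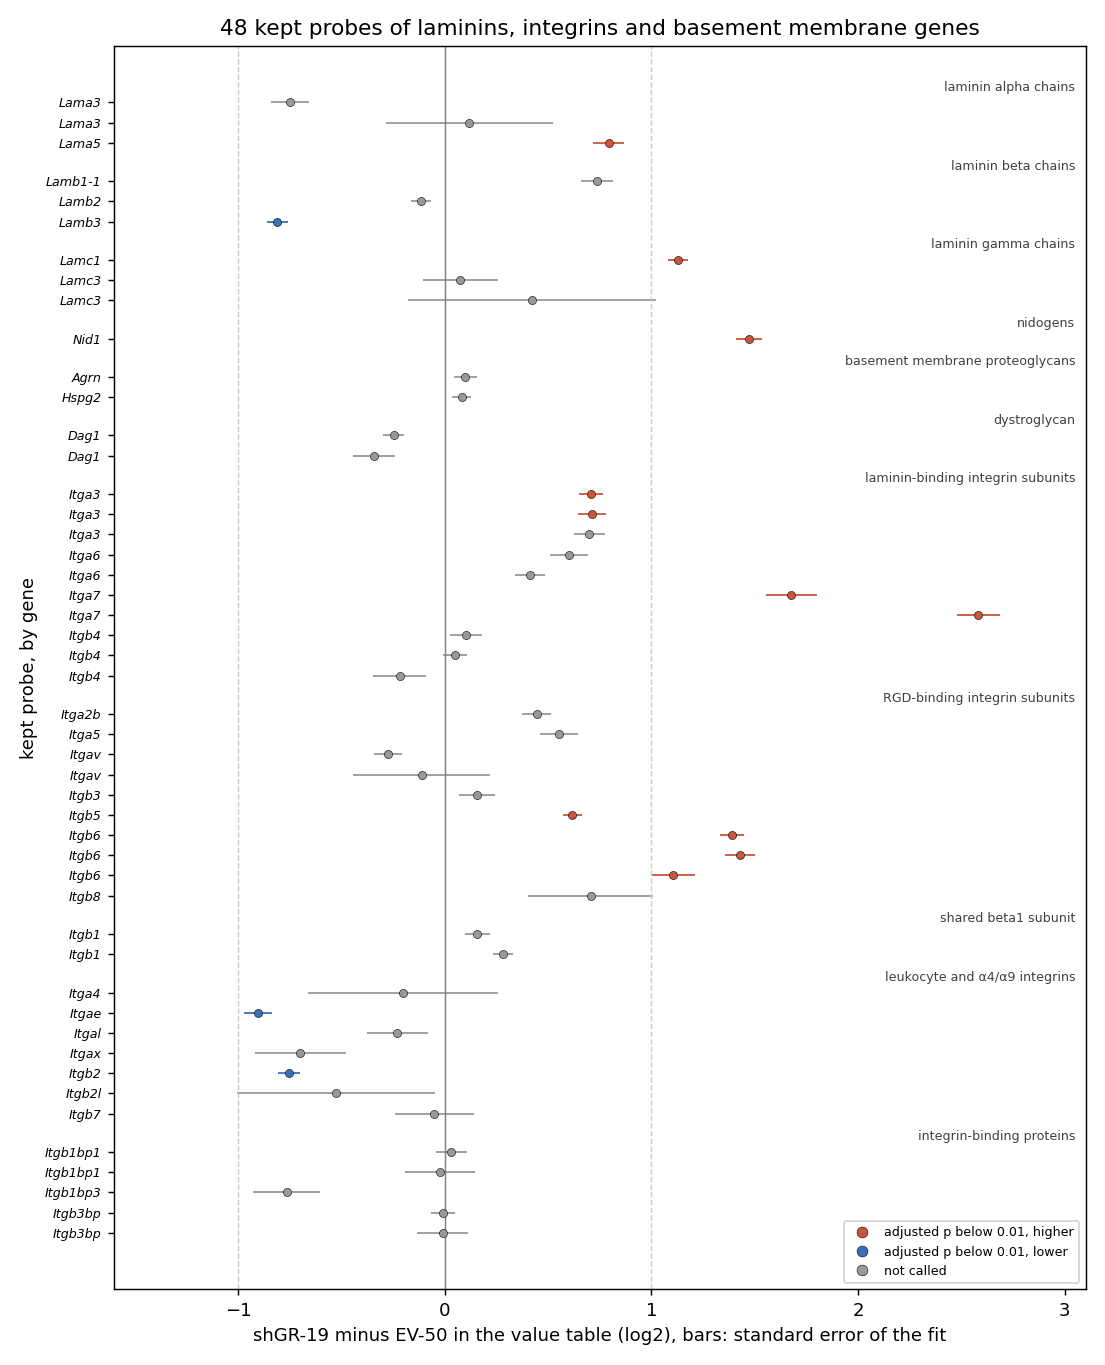
Value-table difference of shGR-19 minus EV-50 (log2) for 48 of the 50 kept probes, grouped by role, with the standard error of the limma fit as bars. Dashed lines mark a 2-fold difference either way. The 11 probes called higher include both kept probes of Itga7 and the 3 of Itgb6, and the 3 called lower lie between -0.90 and -0.75.

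Among the laminin chains, Lamc1 and Lama5, which belong to the widely used α5β1γ1 trimer, were called higher in shGR-19, and Lamb3, of the laminin of hemidesmosomes, was called lower. Lamc1 encodes γ1, the γ chain of most laminins. It read -0.57 and -0.55 in the 2 EV-50 columns of the value table and 0.59 and 0.55 in those of shGR-19. Its difference was 1.13 ± 0.048 (log2, SE, n = 2 per line), which is 2.19-fold (limma adjusted p = 0.00332). On the scanner arrays the same probe read 2.54 and 2.42 in EV-50 and 2.52 and 3.60 in shGR-19, so that shGR-19 replicate 2 alone stood above the rest, and the difference was 0.58 ± 0.42 (SE). Lama5, the α5 chain of basement membranes under adult epithelia, read -0.35 and -0.49 in EV-50 and 0.35 and 0.40 in shGR-19 of the value table. The difference was 0.79 ± 0.074 (1.73-fold, limma adjusted p = 0.00843). Its scanner values were 2.98 and 2.61 in EV-50 and 3.03 and 3.29 in shGR-19 (difference 0.37 ± 0.26, SE), with both shGR-19 arrays above both EV-50 arrays.

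Lamb1-1, the older symbol for the β1 chain, missed the threshold by little. Its value-table columns were -0.36 and -0.32 in EV-50 and 0.32 and 0.48 in shGR-19, a difference of 0.74 ± 0.078 (limma adjusted p = 0.0103), and its scanner difference was 0.38 ± 0.47. It passed (limma adjusted p = 0.00413) when the fit held only probes above background on all 4 arrays. It did not pass with all probes kept, with the replicate number as a term in the fit, or on the scanner arrays. The columns of the lines did not overlap, which an adjusted p so near the threshold all but requires, so it adds nothing.

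Lamb3 encodes β3, a chain of the laminin that anchors hemidesmosomes in stratified and glandular epithelia. The value table gave it 0.42 and 0.38 in EV-50 and -0.38 and -0.44 in shGR-19. It was 1.75-fold lower in shGR-19 (log2 difference -0.81 ± 0.052, limma adjusted p = 0.00500). The scanner arrays read 3.29 and 4.31 in EV-50 and 3.27 and 3.55 in shGR-19, with EV-50 replicate 2 highest and the difference -0.39 ± 0.41. Lama3, the α3 chain of the same laminin, had a brightest probe at 0.30 and 0.42 in EV-50 and -0.48 and -0.30 in shGR-19. That difference, -0.75 ± 0.092, was not called (limma adjusted p = 0.0132), and the second Lama3 probe was at 0.12 ± 0.40. The brightest probe differed by -0.29 ± 0.33 on the scanner arrays. Lama3 thus lay below 0 at 1 of 2 probes without a call.

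No further laminin chain described here was called. Lamb2 differed by -0.11 ± 0.047 and the 2 kept Lamc3 probes by 0.08 ± 0.18 and 0.42 ± 0.60 in the value table. Lama1, Lama2 and Lama4, the α chains better known from embryonic, muscle and vascular basement membranes, had no kept probe.

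Nid1 encodes nidogen 1, the link between the laminin network and collagen IV, and its probe changed the most among the matrix members. It read -0.81 and -0.70 in the EV-50 columns and 0.70 and 0.74 in the shGR-19 columns of the value table. The difference of 1.47 ± 0.063 is 2.77-fold (limma adjusted p = 0.00332). On the scanner arrays it read -4.38 and -4.33 in EV-50 and -4.31 and -3.00 in shGR-19 (difference 0.70 ± 0.49, SE), so the rise was carried by shGR-19 replicate 2. Nid2 was above background on no array. Hspg2 (perlecan) and Agrn (agrin), the heparan sulphate proteoglycans of the basement membrane, differed by 0.08 ± 0.046 and 0.10 ± 0.054 and were not called. Dag1, the precursor of both dystroglycan subunits, differed by -0.25 ± 0.051 and -0.34 ± 0.10 at its 2 probes (limma adjusted p = 0.0374 and 0.0744), and was not called either.

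**Figure D2:**
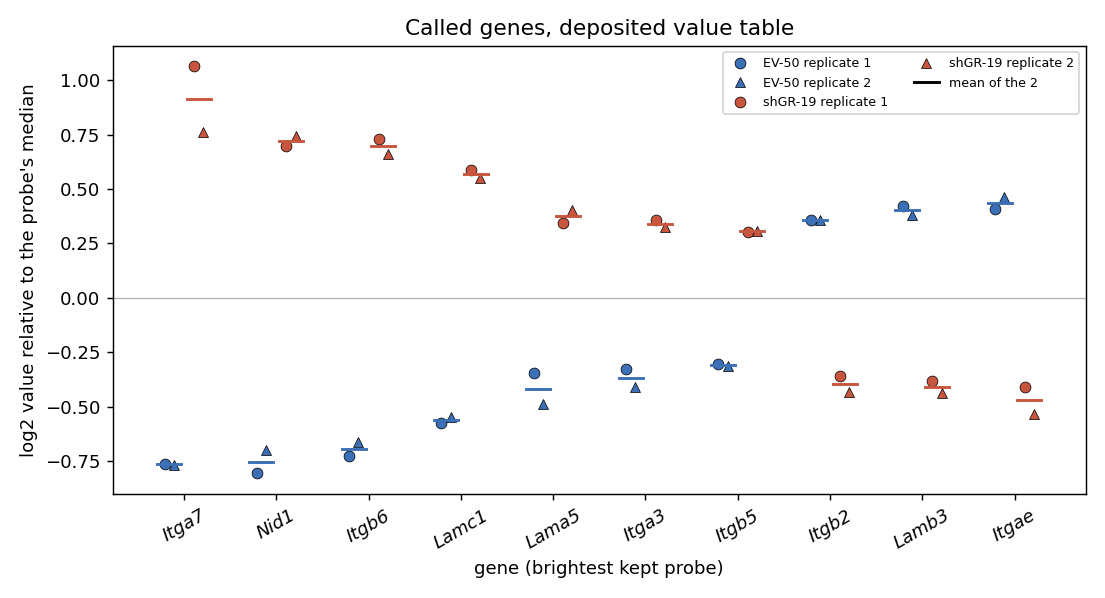
Value-table values (log2, centred per probe) of the brightest kept probe of each of the 10 called genes, by sample: circles are replicate 1, triangles replicate 2, and bars the mean of the 2. In each gene the 2 columns of a line lie close together and apart from those of the other line, with Itga7 shGR-19 replicate 1, at 1.06, the highest value.

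The laminin-binding integrin subunits gave the largest change of the group. Itga7 encodes α7, which pairs with β1 to bind laminin and is best known from muscle. Its brightest probe read -0.76 in both EV-50 columns and 1.06 and 0.76 in shGR-19, a difference of 1.68 ± 0.12, or 3.20-fold (limma adjusted p = 0.00589). Its second probe read -1.21 and -1.42 in EV-50 and 1.33 and 1.21 in shGR-19, a difference of 2.58 ± 0.10, or 5.98-fold (limma adjusted p = 0.00314). Both probes rose, and their values in the 2 lines were far apart in the table. By the scanner, the brighter probe was at -3.14 and -3.53 in EV-50 and -3.14 and -1.86 in shGR-19 (difference 0.84 ± 0.50, SE), and the second read -3.35 and -4.39 in EV-50 and -3.78 and -1.69 in shGR-19 (difference 1.13 ± 0.82, SE). The replicate 1 arrays thus gave differences of 0.003 and -0.43 at these probes, and the replicate 2 arrays 1.67 and 2.70.

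Itga3 encodes α3, an epithelial laminin receptor subunit that also pairs with β1. Its brightest probe read -0.32 and -0.41 in EV-50 and 0.36 and 0.32 in shGR-19 of the value table. The difference was 0.71 ± 0.057 (1.63-fold, limma adjusted p = 0.00677), and a second probe gave 0.71 ± 0.069 (limma adjusted p = 0.00888). The remaining probe gave 0.70 ± 0.076 and lay just outside the threshold (limma adjusted p = 0.0109), so the 3 probes differed by less than their errors. The brightest probe read 4.18 and 4.54 in EV-50 and 4.27 and 5.23 in shGR-19 on the scanner arrays (difference 0.39 ± 0.40, SE). Itga6, the α6 subunit of hemidesmosomes, differed by 0.60 ± 0.094 and 0.41 ± 0.071 at its probes (limma adjusted p = 0.0209 and 0.0252) and was not called. Itgb4, the β4 partner of α6 in hemidesmosomes, differed by 0.10 ± 0.076, 0.05 ± 0.058 and -0.22 ± 0.13. None of these was called. Itgb1, the β1 partner shared by most of the α subunits, differed by 0.16 ± 0.061 and 0.28 ± 0.048 at its 2 kept probes (limma adjusted p = 0.133 and 0.0244) and was not called. Itga1, Itga2, Itga10 and Itga11, the collagen-binding α subunits, had 0 of 8 probes kept.

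Among the subunits of integrins that bind the RGD motif of fibronectin, vitronectin and latent TGF-β, Itgb6 and Itgb5 were called. Itgb6 encodes β6, an epithelial subunit that pairs with αv and is known for activating latent TGF-β. Its brightest probe read -0.73 and -0.66 in EV-50 and 0.73 and 0.66 in shGR-19 of the value table, a difference of 1.39 ± 0.057, or 2.62-fold (limma adjusted p = 0.00321). The other 2 probes gave 1.43 ± 0.073 and 1.11 ± 0.11, so that all 3 stretches of the transcript were over 2-fold higher. On the scanner arrays the brightest probe read -1.90 and -1.02 in EV-50 and -1.84 and 0.25 in shGR-19, the highest being shGR-19 replicate 2 (difference 0.66 ± 0.79, SE). Itgb5 encodes β5, another αv partner and a vitronectin receptor subunit. It read -0.30 and -0.31 in EV-50 and 0.30 and 0.31 in shGR-19 of the value table (difference 0.62 ± 0.045, 1.53-fold, limma adjusted p = 0.00603). The scanner arrays, at 5.25 and 6.96 in EV-50 and 5.28 and 7.58 in shGR-19, differed more between replicates of a line than between lines (0.32 ± 0.99, SE).

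Itgav, the αv subunit with which β5 and β6 pair, was not called at either kept probe (-0.27 ± 0.068 and -0.11 ± 0.33). Itga5, the α5 subunit of the fibronectin receptor, was at 0.55 ± 0.091 without a call (limma adjusted p = 0.0229). The uncalled probes of this class, which also include Itga2b, Itgb3 and Itgb8, ran from -0.27 to 0.71. Itga8 had no kept probe.

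Of the subunits best known from leukocytes, Itgae and Itgb2 were called lower. Itgae encodes αE, which pairs with β7 and binds E-cadherin. It read 0.41 and 0.46 in EV-50 and -0.41 and -0.53 in shGR-19 of the value table, a difference of -0.90 ± 0.069 (1.87-fold lower, limma adjusted p = 0.00628). Its scanner values went the other way as a mean, at -4.14 and -3.04 in EV-50 and -3.64 and -3.31 in shGR-19 (difference 0.11 ± 0.44), with the lines overlapping. Itgb2 encodes β2, the common β chain of the leukocyte adhesion receptors. It read 0.36 in both EV-50 columns and -0.36 and -0.43 in the shGR-19 columns (difference -0.75 ± 0.053, 1.69-fold lower, limma adjusted p = 0.00569). On the scanner arrays it read 1.75 and 0.85 in EV-50 and 1.71 and 0.28 in shGR-19 (difference -0.31 ± 0.60), and the 2 replicates of each line lay farther apart than the lines. The uncalled probes of this class (Itga4, Itgal, Itgax, Itgb2l and Itgb7) ran from -0.70 to -0.05. Of a list of 7 immune cell markers, 0 were called, and Ptprc, the pan-leukocyte marker, and Emr1, a macrophage marker, were above background on no array. Itga9 and Itgam had no kept probe. The integrin-binding proteins Itgb1bp1, Itgb1bp3 and Itgb3bp ran from -0.77 to 0.03 with no call, and Itgb1bp2 was not kept.

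**Figure D3:**
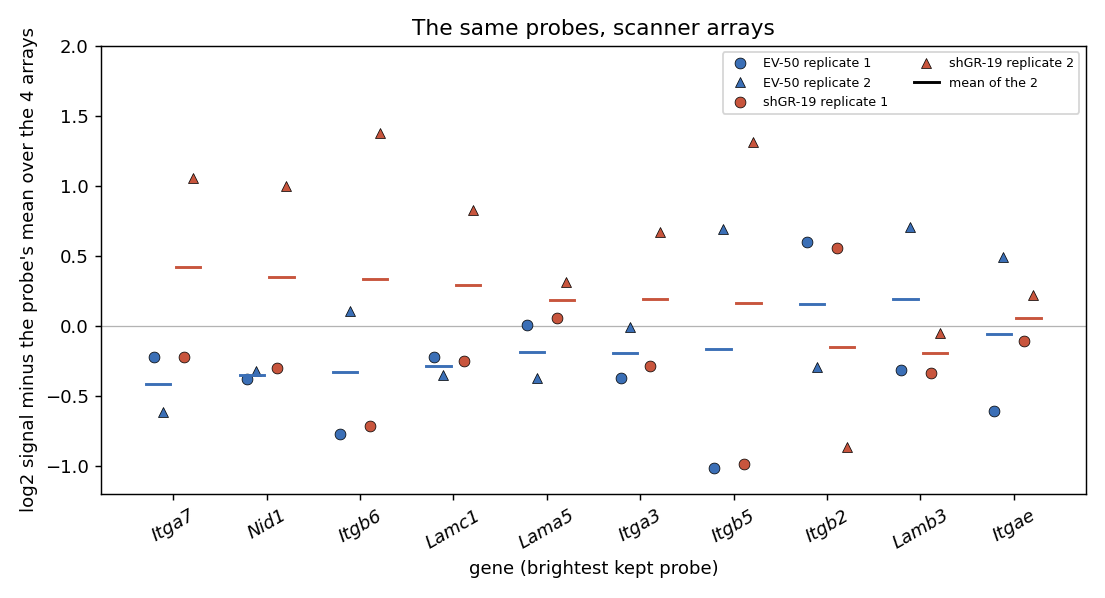
Scanner values (log2 signal minus the mean of the probe over the 4 arrays) of the same probes of the 10 called genes, by array, with the same symbols. The arrays labelled replicate 1 of the 2 lines (circles) lie close together for most genes, and the lines part between the arrays labelled replicate 2 (triangles).

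Over the 14 called probes, the difference between the replicate 1 scanner arrays had the sign of the value table in 10 and a median size of 0.054, within a range of -0.43 to 0.50. The difference between the replicate 2 arrays had the sign of the table in 14 of 14 and a median size of 0.93, within a range of -0.76 to 2.70. These probes were chosen by their value-table difference in the same samples, so the matching signs add nothing to the calls. The share of all kept probes with matching signs was not counted. Over all 21173 probes above background on every array, the differences between the lines had an SD of 0.225 on the replicate 1 arrays and 0.513 on the replicate 2 arrays.

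**Figure D4:**
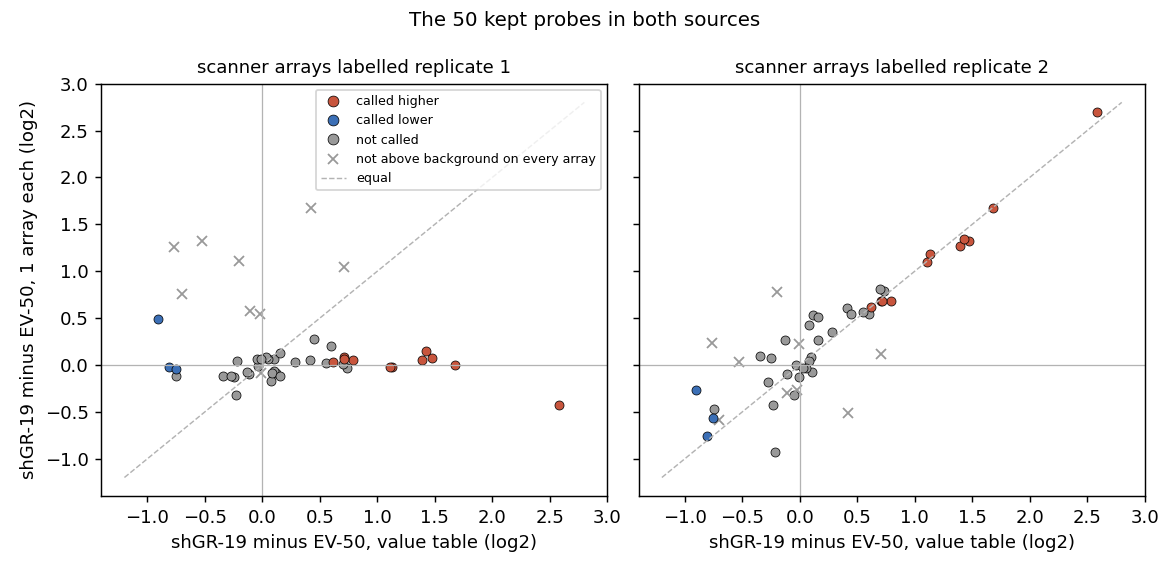
Difference between the lines on 1 pair of scanner arrays (log2) against that in the value table for the 50 kept probes, for the arrays labelled replicate 1 (left) and replicate 2 (right). Most called probes lie near 0 on the left (median size 0.054) and near the line of equality on the right (median size 0.93). On the left, Itgae (0.50) and the second Itga7 probe (-0.43) lie away from 0. On the right, Itgae (-0.27, against -0.90 in the value table) lies off the line. Crosses mark probes not above background on every array.

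Genes around the members were taken from 5 lists, with calls again from the value table, in which 5.53% of all kept probes were called higher and 6.04% lower and the median difference was 0.01. Of 9 basement membrane collagen genes 8 were kept, 2 of them higher (Col4a4 by 0.87 ± 0.083 and Col4a5 by 0.86 ± 0.061, log2 in the value table) and 2 lower (Col15a1 at -1.99 ± 0.12 and Col18a1, the source of endostatin, at -1.12 ± 0.070). Col4a1 and Col4a2, the chains found in nearly all basement membranes, were not called, at -0.10 ± 0.15 and 0.33 ± 0.12. Of 9 genes for hemidesmosome proteins and other laminin receptors 8 were kept, with Dst (0.80 ± 0.059) and Sdc4 (0.78 ± 0.056) higher and Bcam, an immunoglobulin-family receptor for the laminin α5 chain, lower (-1.38 ± 0.071). The medians of these 2 lists were 0.07 and 0.05. Bcam and its ligand chain Lama5 therefore changed in opposite directions.

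All 20 focal adhesion genes, whose products join integrins to actin, were kept, and 3 were called: Pxn (0.60 ± 0.047) and Src (0.62 ± 0.055) higher and Tns1 (-0.77 ± 0.052) lower. Of 15 genes of the dystroglycan complex and its glycosylation 13 were kept, with 0 higher and Sgcb (-0.73 ± 0.049) and Dmd (-0.57 ± 0.049) lower. Of 12 genes for integrin ligands and latent TGF-β proteins, 10 were kept and 8 were called. Tgfb2 (1.495 ± 0.080), Ltbp1 (1.04 ± 0.072), Ltbp3 (0.54 ± 0.056) and Tgfb3 (0.48 ± 0.048) were higher. Tnc (-1.59 ± 0.077), Tgfb1 (-1.16 ± 0.059), Ltbp2 (-1.14 ± 0.11) and Spp1 (-0.94 ± 0.046) were lower, and Fn1, the fibronectin gene, was not called (-0.64 ± 0.13, limma adjusted p = 0.0368). The medians of the 3 lists, in this order, were -0.00071, -0.07 and -0.08. The latent forms of the Tgfb1 and Tgfb3 products are ligands of the αvβ6 integrin, and these 2 genes changed in opposite directions.

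Of 8 epithelial markers 7 were kept and 0 were called, Krt8 being at 0.06 ± 0.070 and Cdh1 at 0.17 ± 0.048. Of 6 basal and myoepithelial markers 5 were kept, with Krt14 lower (-1.13 ± 0.049). The other kept ones were not called. Trp63 was at -0.40 ± 0.068, Krt5 at -0.30 ± 0.31 and Acta2 at -0.17 ± 0.064, while Myh11 was at 0.39 ± 0.11. Of 7 fibroblast markers 2 were kept and both were higher, Col1a2 by 3.27 ± 0.046 and Pdgfra by 1.16 ± 0.058. The summed signal of the fibroblast markers, in units of the 75th percentile of each array, was 1.80 and 3.12 on the EV-50 arrays and 1.64 and 34.4 on the shGR-19 arrays. The 34.4 on shGR-19 replicate 2 came mostly from Col1a2, at log2 4.93 there, against 0.64 to 1.56 on the other arrays. Col1a1, which was not kept, read 1.92 there and -6.34 to -3.69 on the other arrays. Col3a1, Thy1 and Lum were above background on 1 array each, and the defining marker Dcn on none. The part of the fibroblast markers in the rise of Nid1, Lamc1 and Itga7 was not tested. With whole-culture RNA, a change in the number of cells of a type and a change in RNA per cell cannot be told apart. Of 6 endothelial markers 3 were kept and 0 were called.

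RefSeq promoter sequences (GRCm38) were listed for 30 of the 46 genes and for 6 of the 10 called, namely Lama5, Lamb3, Nid1, Itga3, Itgb5 and Itgb6. Lamc1, Itga7, Itgae and Itgb2 were not among them. Lamb3, Itga3 and Itgb6 each had 2 listed start sites, of which only the most upstream was searched. The 250 bases before the start site are shown for 3 genes that rose and for Lamb3, which fell, because the 4 genes were called in a line depleted of a transcription factor. Letters run 5′ to 3′ along the gene, and capitals mark the GC box GGGCGG and the ETS core CCGGAA, which the factor GABP can bind, each searched on both strands.
Lama5 promoter (chr2:180225860-180226109, - strand): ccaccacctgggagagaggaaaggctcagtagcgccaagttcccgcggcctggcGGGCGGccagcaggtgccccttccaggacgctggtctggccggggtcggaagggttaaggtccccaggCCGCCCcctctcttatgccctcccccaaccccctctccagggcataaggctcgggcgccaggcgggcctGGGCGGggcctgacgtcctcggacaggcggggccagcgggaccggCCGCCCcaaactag
Nid1 promoter (chr13:13437352-13437601, + strand): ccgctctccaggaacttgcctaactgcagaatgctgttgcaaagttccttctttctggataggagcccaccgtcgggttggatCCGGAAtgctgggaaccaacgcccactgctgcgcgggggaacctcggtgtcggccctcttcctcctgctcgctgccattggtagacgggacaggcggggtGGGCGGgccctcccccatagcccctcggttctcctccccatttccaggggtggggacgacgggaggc
Lamb3 promoter (chr1:193301744-193301993, + strand): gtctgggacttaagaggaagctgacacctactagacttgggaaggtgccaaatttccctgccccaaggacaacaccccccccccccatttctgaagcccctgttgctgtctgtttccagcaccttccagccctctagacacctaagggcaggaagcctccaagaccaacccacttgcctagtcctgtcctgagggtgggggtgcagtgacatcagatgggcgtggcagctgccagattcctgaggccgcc
Itgb6 promoter (chr2:60722604-60722853, - strand): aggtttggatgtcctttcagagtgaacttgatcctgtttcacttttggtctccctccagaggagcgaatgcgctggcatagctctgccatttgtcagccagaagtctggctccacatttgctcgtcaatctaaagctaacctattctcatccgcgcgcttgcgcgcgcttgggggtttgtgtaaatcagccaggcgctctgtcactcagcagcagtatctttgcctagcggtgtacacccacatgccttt

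The GR half-site AGAACA, searched on both strands, was in none of the 6 windows and in 16.1% of all 32851 RefSeq promoter windows of that length. The full site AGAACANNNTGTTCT, which contains that half-site, was in 0.00913% of all windows and in none of the 6. The AP-1 site TGANTCA (6.75% of all) and the TATA box TATAAA (12.4% of all) were in none of the 6 either. The GC box, in 32.7% of all windows, was in the windows of Lama5 (4 matches), Itga3 (3), Itgb5 (3) and Nid1 (1) and in those of neither Lamb3 nor Itgb6. The ETS core, in 12.03% of all, was in those of Nid1 and Itga3. The GC content ran from 52.0% in Itgb6 and 58.8% in Lamb3 to 72.4% in Lama5, against a median of 52.4% over all windows. These matches describe the letters of the windows only.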

How the data were processed

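The RNA of the 4 samples was read on 1-colour arrays. Spot intensity, background-subtracted by Agilent Feature Extraction 10.5.1.1 (version per the submitters' processing notes) and unscaled, was deposited by the authors for each array. A second deposited file holds log2 values of the same samples from GeneSpring, in which each probe is centred on its median. How its columns were scaled between arrays beyond the program's recommended steps is not given in the sources used here. The centring removes the level of each probe, and values below background there carry little information.

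Scanner signals were put on the log2 scale and each array was set to its own 75th percentile (516 to 584 intensity units). Control spots and 74 to 139 outlier spots per array were left out, no spot was saturated, and spots of 1 probe were averaged. Between 23290 and 27358 of 43379 spots per array were well above background, and having 2 arrays per line limits the precision. A probe was kept if both arrays of either line were well above background for it. Lines were compared with lmFit and eBayes of limma 3.58.1 (R 4.3.3) across 24436 kept probes with Benjamini-Hochberg adjustment, in both sources with the same probes, and called at an adjusted p below 0.01. The 2-fold and 0.01 thresholds are those of the study's methods. The fits were also run on simulated data with errors independent between arrays. In the scanner files the deviations of same-numbered arrays correlated at 0.574, so that run cannot tell how often calls are wrong here. The 4 arrays share a slide and a scan time in the file headers, so neither could be a batch term. No permutation test was run, since with 2 arrays against 2 its smallest exact p is 0.333.

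Named in full are genes with a called probe (the brightest kept probe, and others where the call or direction differs), including both members in the study's supplementary list, Itgb6 and Lamc1. Lamb1-1 and Lama3, just outside the threshold, were chosen after their values were seen. Members, lists and thresholds were chosen with earlier results of these data known. Alternatives were normexp correction (offset 50), quantile normalization, the percentile over detected probes, other filters on dim probes, eBayes with trend and robust settings (statmod 1.5.0), the replicate block, each array left out, other p thresholds, the methods' t-test and the other source. Each array labelled replicate 1 or 2 taken alone was added after seeing the data. The values of 1 member gene are not reported here.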

Additional observations from a re-analysis of the deposited data

How the results depend on the processing

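In the value table, the 11 members called higher and the 3 called lower became 0 and 0 with all probes kept, with the replicate block, without any 1 column (range 0 to 0 in each direction), by the methods' t-test after adjustment, and on the scanner files. The 7 members higher by over 2-fold became 0 under the same settings (without any 1 column, 0 to 0). An intensity trend with a robust prior called 18 higher and 7 lower, an adjusted p below 0.05 called 18 and 6, and an unadjusted p below 0.01 called 18 and 4. With only probes above background on all 4 arrays the counts were 14 and 4, and by the methods' t-test without adjustment 11 and 3. Directions in the table did not turn for the 13 named probes in any refit of the table. The loss with 1 column out comes with fewer columns, and the other causes were not tested. The replicate block changed no call in the scanner files, where the number of called members was 0 under each alternative. With 2 pairs, the deviations of same-numbered samples correlated at 0.574 in the scanner files and 0.056 in the table, and the labels do not say what a number marks, so no pairing is established.

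The member median of 0.19 in the scanner files became -0.011 with all probes kept, 0.013 with normexp correction, 0.042 in the samples labelled replicate 1 alone, and ran from -0.039 to 0.45 with 1 array left out. The median of 0.09 in the table became -0.034 with all probes kept, 0.22 in the samples labelled replicate 2 alone, and 0.19 on the scanner files.

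Scanner differences changed sign with 1 array left out for Lamb3 (-0.90 to 0.12), Itga3 (-0.095 to 0.87, and -0.032 to 0.86 at the uncalled probe), Itgb5 (-0.82 to 1.47), Itgb6 (-0.38 to 1.71), Itgae (-0.44 to 0.66), Itgb2 (-1.02 to 0.40), Lamb1-1 (-0.22 to 0.97) and Lama3 (-0.63 to 0.055). Between the replicate 1 arrays alone, Lamc1 was at -0.026 and Lamb1-1 at -0.033. Nid1, Itgae and Itga7 had the lowest scanner signals among the brightest probes of the called genes. With normexp correction the scanner difference of Nid1 went from 0.70 to 0.25 ± 0.25 (SE). That of the brightest Itga7 probe went from 0.84 to 0.51 ± 0.30. Those of the brighter Lamc1 and Lama5 probes stayed near their values, at 0.58 and 0.39. Itgae, at 0.11 in the scanner files, was at -0.067 with normexp correction, -0.27 between the replicate 2 arrays and -0.90 in the table, and so the table value of Itgae turned to 0.11 on the scanner files. With only 2 arrays per line and 9 of the 50 kept member probes dim on at least 1 array, small differences could not be resolved.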

Other observations

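The 45 member probes that were not kept were not well above background on both arrays of either line, and no direction was read from their value-table columns. Of the 9 members kept but not well above background on every array, the Itga4 probe was above background on 0 of 2 EV-50 arrays and 2 of 2 shGR-19 arrays. Its scanner difference was 0.94 ± 0.23 (SE, limma adjusted p = 1.00), while its value-table difference was -0.20 ± 0.46. Itgb8, a further αv partner, was above background on 1 of 2 EV-50 arrays and on both shGR-19 arrays, and differed by 0.71 ± 0.30 in the value table and 0.58 ± 0.71 in the scanner files, with no call in either.

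Probes of 1 gene differed in direction in the value table for Lama3, Itgb4 and Itgb1bp1 among the 13 genes with several kept probes. For Itgb4 they ran from -0.22 to 0.10. The probes of Itga7 had the same direction and different sizes (1.68 and 2.58).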
